A study of Homo sapiens with 28 samples.

Results

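LNCaP cells, an androgen-responsive human prostate adenocarcinoma line, carrying an empty vector were grown in normoxia or in a hypoxia chamber at 0.2% oxygen, and their polyadenylated RNA was sequenced. The response described here is the difference between the 2 hypoxia and the 2 normoxia libraries of these empty vector cells, which are 4 of the 28 samples of the study and 4 of its 16 RNA-Seq libraries. Of the 19662 gene symbols in the LNCaP table, 11790 had an RPKM (reads per kilobase of transcript, scaled to the number of mapped reads of the library) of at least 1 in at least 2 of the 4 libraries. Of these, 29 were set aside because a library listed an exact 0 beside a value over 10, and 11761 were tested. A gene is said to have risen or fallen where its adjusted p was under 0.05, and it is called induced or lowered where it also changed more than 2-fold, which left 623 induced and 253 lowered genes.

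The study asked how ONECUT2, a homeobox transcription factor, acts together with hypoxia in prostate cancer. The empty vector cells carry no added ONECUT2 and are the control arm of LNCaP cells with a Flag-tagged ONECUT2 (Flag-OC2) vector, which were sequenced at both oxygen levels with 2 libraries each. PC3 cells, a prostate cancer line that the study treats as neuroendocrine-like, were sequenced with a control siRNA (siCtrl) at both oxygen levels, again with 2 libraries each. The hours of hypoxia before RNA extraction are not given in the sources used here, and neither is whether the 2 libraries of a group came from separate cultures, so the p-values measure the spread between these libraries, which may be technical.

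Cells read oxygen through the hypoxia-inducible factors (HIFs). In oxygen, prolyl hydroxylases of the EGLN family mark the HIF alpha subunits, the VHL protein binds the marked protein and it is degraded. In hypoxia this reaction slows, the alpha subunit is kept, pairs with ARNT and binds a short DNA element near genes for glucose uptake, glycolysis, blood vessel growth and mitochondrial turnover. The alpha subunit is therefore regulated mostly as protein, which RNA-Seq does not measure, whereas its target genes are read directly.

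Promoters of 5 genes that carry the response are shown first, each as the 250 bases before the RefSeq transcription start, 5′ to 3′ on the strand of the gene. Capitals mark the letters ACGTG or GCGTG, the core of the element that HIFs bind, on either strand, so that the reverse strand appears as CACGT or CACGC and a palindrome counts for both strands.
PLOD2, chr3:145878972-145879221 (GRCh37, minus strand): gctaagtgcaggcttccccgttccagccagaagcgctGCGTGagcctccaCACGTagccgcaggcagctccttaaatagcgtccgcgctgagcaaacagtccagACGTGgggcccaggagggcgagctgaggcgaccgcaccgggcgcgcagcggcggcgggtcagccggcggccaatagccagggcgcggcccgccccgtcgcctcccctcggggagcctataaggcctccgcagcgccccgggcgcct
LDHA, chr11:18415860-18416109 (GRCh37, plus strand): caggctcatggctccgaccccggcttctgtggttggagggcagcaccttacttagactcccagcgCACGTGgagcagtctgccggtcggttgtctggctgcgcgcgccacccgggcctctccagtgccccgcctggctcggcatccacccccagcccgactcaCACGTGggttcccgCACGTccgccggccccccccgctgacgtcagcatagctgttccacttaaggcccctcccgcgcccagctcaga
PGK1, chrX:77359495-77359744 (GRCh37, plus strand): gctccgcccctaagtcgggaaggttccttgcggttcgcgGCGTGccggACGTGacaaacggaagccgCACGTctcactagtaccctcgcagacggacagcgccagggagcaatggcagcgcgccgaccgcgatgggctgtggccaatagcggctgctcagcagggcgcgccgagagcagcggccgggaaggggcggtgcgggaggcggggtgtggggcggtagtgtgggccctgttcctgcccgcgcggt
PFKFB4, chr3:48594237-48594486 (GRCh37, minus strand): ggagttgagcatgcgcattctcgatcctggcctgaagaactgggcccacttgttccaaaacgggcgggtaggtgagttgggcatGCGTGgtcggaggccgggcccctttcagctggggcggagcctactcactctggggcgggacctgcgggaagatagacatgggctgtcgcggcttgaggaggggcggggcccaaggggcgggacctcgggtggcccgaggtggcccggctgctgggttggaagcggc
EGLN3, chr14:34420281-34420530 (GRCh37, minus strand): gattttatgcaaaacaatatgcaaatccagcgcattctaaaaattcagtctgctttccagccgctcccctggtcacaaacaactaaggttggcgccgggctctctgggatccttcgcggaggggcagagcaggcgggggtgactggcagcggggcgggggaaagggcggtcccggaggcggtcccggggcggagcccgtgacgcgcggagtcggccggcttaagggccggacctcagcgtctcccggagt
The motif was found 3 times in the window of PLOD2, 5 times in that of LDHA, 3 times in that of PGK1 and 1 time in that of PFKFB4, and 0 times in that of EGLN3, whose mRNA rose as well. These letters are common. Among the 9565 tested genes with a RefSeq window, 64.0% held at least 1 motif in the 300 bases that reach 50 bases past the start, against 15 of the 22 glycolysis genes with a window (68.2%) and 48.4% of all 35116 RefSeq windows. The motif was in 55.4% of the induced and 51.6% of the lowered genes with a window, below the share of all tested genes. Of the 24 known HIF targets described further below, 18 had a window and 14 of these (77.8%) held the motif, above that share. At least 2 motifs were in 66.7% of these windows, against 34.7% of all tested genes with a window. These shares are descriptions without a test, and no conclusion about the induced or lowered genes is drawn from them. A window was found for 79.6% of the induced and 74.3% of the lowered genes, against 81.3% of all tested genes. Genes without a window could not be searched.

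The 4 empty vector libraries were of similar depth. Relative to normoxia replicate 1, set to 1, the depths estimated from the smallest steps of low RPKM ranged from 0.969 to 1.21. The Flag-OC2 libraries, which share the fit, were less even, from 0.662 in normoxia replicate 1 to 1.07 in hypoxia replicate 1. The median absolute log2 difference between the libraries of a group was 0.196 in normoxia and 0.0992 in hypoxia. All 10 luminal prostate markers were over 1 RPKM, against 2 of 6 basal, 1 of 7 fibroblast, 1 of 5 endothelial and 1 of 5 leukocyte markers. The summed RPKM of the luminal markers, KLK3 among them, ranged from 3828 to 3867 in normoxia and from 6654 to 6944 in hypoxia. Their highest single value was 3997 RPKM, so the sum follows its most abundant members. Of the 10 luminal markers 5 rose and 0 fell, against 19.1% of all genes rising and 15.1% falling, and their median log2 fold change was 0.23. The sum of the basal markers ranged from 5.55 to 5.67 in normoxia and from 8.22 to 9.17 in hypoxia. The sum over the fibroblast markers ranged from 8.19 to 8.21 in normoxia and from 17.1 to 18.1 in hypoxia, over the endothelial markers from 2.32 to 2.87 and from 1.06 to 1.86, and over the leukocyte markers from 28.8 to 34.7 and from 21.1 to 27.1. The highest single value was 17.5 RPKM among the fibroblast and 34.6 RPKM among the leukocyte markers. The samples are labelled as a single cell line, so these sums are not read as amounts of other cell types. Whether shifts in these few transcripts have a part in other changes was not tested, and bulk RNA does not show which cells they come from.

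Hypoxia moved many genes by small amounts and fewer by large ones. Of the 11761 genes, 2250 (19.1%) rose and 1781 (15.1%) fell in hypoxia, 623 (5.3%) were induced and 253 (2.15%) were lowered, while the median log2 fold change over all genes was 0.02. The large changes were mostly increases: 132 genes were induced over 4-fold and 53 over 8-fold, against 26 and 8 lowered genes. Of the induced genes 137 were under 1 RPKM in both normoxia libraries, and 78 lowered genes were under 1 RPKM in both hypoxia libraries. At the fold limit, ZSWIM8 (78.1 and 91.8 to 173 and 166 RPKM, log2 fold change 1.00) lay just inside and MEX3B (1.82 and 1.79 to 3.80 and 3.62 RPKM, 0.998) just outside, and PTER (16.1 and 14.1 to 7.41 and 7.54 RPKM, -1.0001) and HSPD1 (992 and 811 to 431 and 467 RPKM, -0.9992) did so among the falling genes. Without hypoxia replicate 1 the genes that rose numbered 1146 and those that fell 693, and without hypoxia replicate 2 they numbered 1222 and 818. When each library was left out in turn, 987 genes rose and 541 fell in all 4 fits, and 454 were induced and 133 lowered in all 4.

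**Figure D1:**
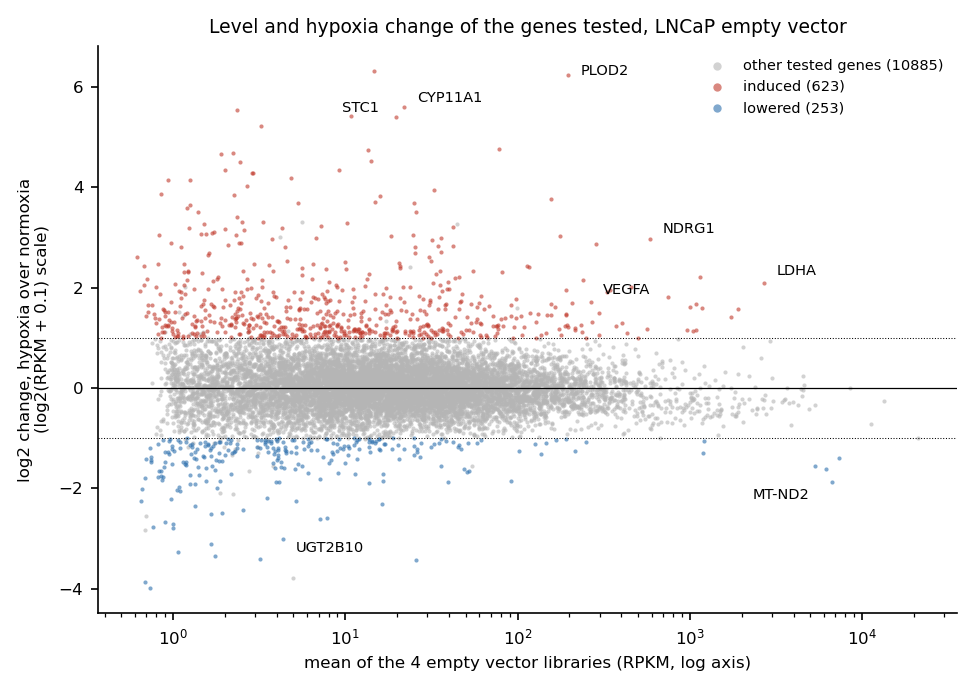
Log2 fold change of hypoxia over normoxia (y axis) against the mean RPKM of the 4 empty vector libraries (x axis, log scale), 1 point per tested gene, with 623 induced and 253 lowered genes coloured, some of them named, and dotted lines at a 2-fold change. The points far above 0 outnumber those far below, as 132 genes were induced and 26 lowered over 4-fold.

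Among the 12 induced genes of largest change, PLOD2, which hydroxylates collagen lysines, stood out by its level. It measured 7.36 and 3.38 RPKM in normoxia and 397 and 375 RPKM in hypoxia, a log2 fold change on the log2(RPKM + 0.1) scale of 6.24 ± 0.64 (adjusted p = 0.000209), where ± is the SE of the fit. Its normoxia libraries differed by more than 2-fold from each other, yet both were far below the hypoxia libraries. CYP11A1, whose product makes pregnenolone from cholesterol in the first step of steroid synthesis, went from 0.783 and 0.783 to 40.4 and 45.9 RPKM, a log2 fold change of 5.61 ± 0.47 (adjusted p = 7.42e-05). STC1, a secreted glycoprotein hormone, went from 0.864 and 0.758 to 39.6 and 37.7 RPKM, a log2 fold change of 5.41 ± 0.38 (adjusted p = 2.83e-05). Apart from PLOD2 these genes were under 1 RPKM in both normoxia libraries. HTR5A-AS1 went from 0.319 and 0.221 to 29.3 and 28.9 RPKM, a log2 fold change of 6.31 ± 0.38 (adjusted p = 1.77e-05). HTR5A, a serotonin receptor gene, went from 0.224 and 0.653 to 22.8 and 19.6 RPKM, a log2 fold change of 5.43 ± 0.53 (adjusted p = 0.000163). They overlap on opposite strands of chromosome 7 (HTR5A-AS1 at chr7:154858744-154864160 on the minus strand, GRCh37), and since the strand setting of the counting is not given in the sources used here, their reads cannot be told apart.

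The rest of the 12 came from several functions. TMEM100, a small membrane protein of BMP signalling, went from 0.984 and 0.774 to 23.5 and 29.1 RPKM, a log2 fold change of 4.75 ± 0.25 (adjusted p = 1.07e-05). ADRA2A, the alpha-2A adrenergic receptor, went from 0.889 and 1.31 to 27.9 and 26.4 RPKM, a log2 fold change of 4.53 ± 0.21 (adjusted p = 6.58e-06). Both were expressed at about 1 RPKM in normoxia and in a narrow range in hypoxia. MYOD1, best known as a transcription factor of skeletal muscle, went from 0.0999 and 0.0517 to 6.97 and 5.92 RPKM, a log2 fold change of 5.23 ± 0.26 (adjusted p = 1.07e-05). TGFB1, which encodes the cytokine TGF-beta 1, went from 0.0155 and 0.0891 to 4.52 and 2.94 RPKM, a log2 fold change of 4.66 ± 0.31 (adjusted p = 2.28e-05). IGFBP5, a secreted binding protein of insulin-like growth factors, went from 0.0331 and 0.126 to 4.33 and 4.46 RPKM, a log2 fold change of 4.69 ± 0.36 (adjusted p = 4.75e-05). TRIM49D1 went from 6.19 and 4.83 to 147 and 155 RPKM, a log2 fold change of 4.76 ± 0.28 (adjusted p = 1.69e-05). However, it belongs to a family of near-identical copies whose reads the counting may have divided among them. The last of the 12, AL035252.1, was listed at practically 0 in both normoxia libraries and at 5.93 and 3.52 RPKM in hypoxia, so no fold is given.

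Of the 12 lowered genes of largest change, UGT2B10, a glucuronosyltransferase, measured 8.30 and 7.43 RPKM in normoxia and 0.859 and 0.92 RPKM in hypoxia, a log2 fold change of -3.01 ± 0.20 (adjusted p = 2.28e-05). The libraries of each group lay close together. RDH12, a retinal reductase, went from 2.37 and 1.27 to 0.241 and 0.111 RPKM, a log2 fold change of -2.78 ± 0.44 (adjusted p = 0.00182). CCL20, a chemokine, went from 1.83 and 1.78 to 0.131 and 0.268 RPKM, a log2 fold change of -2.71 ± 0.37 (adjusted p = 0.000979). NAP1L3 went from 1.60 and 1.65 to 0.105 and 0.255 RPKM, a log2 fold change of -2.68 ± 0.32 (adjusted p = 0.000449). These 3 genes fell below 0.3 RPKM in both hypoxia libraries. C9orf92 went from 3.79 and 2.76 to 0.135 and 0.356 RPKM, a log2 fold change of -3.35 ± 0.34 (adjusted p = 0.000201), although it overlaps BNC2 on the same strand, and ZMYM6NB from 2.37 and 3.71 to 0.155 and 0.394 RPKM, a log2 fold change of -3.12 ± 0.53 (adjusted p = 0.00265). A further 5 of these 12 genes rest on values at or near an exact 0 in hypoxia, and no fold is given for them. SLC5A3 was listed at 1.58 and 1.37 RPKM in normoxia and at 0 in both hypoxia libraries, where MRPS6, which it overlaps on the same strand, was also listed at 0. TVP23C-CDRT4, which shares its locus with TVP23C and CDRT4, was listed at 1.54 and 1.21 RPKM in normoxia and at practically 0 in hypoxia. AC026407.1 (4.72 and 5.65 RPKM in normoxia), CTC-429P9.4 (2.71 and 1.26 RPKM) and RP11-216L13.17 (1.52 and 1.18 RPKM) were listed at practically 0 in 1 of the 2 hypoxia libraries. The adjusted p of AC026407.1 rose to 0.0939 without normoxia replicate 1 and to 0.125 without normoxia replicate 2, and that of CTC-429P9.4 to 0.0503 without normoxia replicate 1 and to 0.056 without hypoxia replicate 1.

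**Figure D2:**
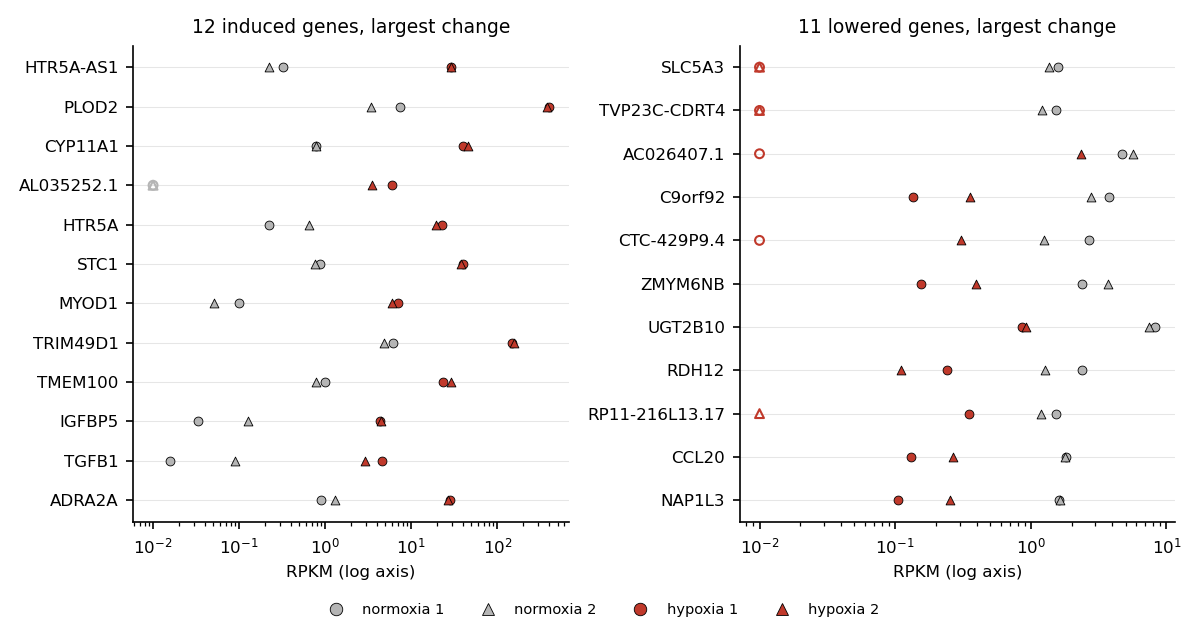
RPKM on a log axis (x) of the 12 induced and 11 of the 12 lowered genes of largest change (y), with 1 symbol for each of the 4 empty vector libraries. Open symbols at 0.01 RPKM stand for values below that, exact 0 included, and PLOD2 reached the highest level of these genes, at 397 and 375 RPKM in hypoxia.

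Of the genes of the oxygen sensor itself, an alpha subunit, a pair of hydroxylases and CITED2 rose and the others did not pass the test. Over all genes 19.1% rose and 15.1% fell. HIF1A, the main alpha subunit, measured 224 and 193 RPKM in normoxia and 221 and 235 RPKM in hypoxia, and the libraries overlapped (log2 fold change 0.13, adjusted p = 0.457). EPAS1, which encodes HIF-2 alpha, was far less abundant than HIF1A on the RPKM scale, which is per length, and was induced, from 2.14 and 1.43 to 5.21 and 4.41 RPKM, a log2 fold change of 1.401 ± 0.29 (adjusted p = 0.00644). Both oxygen-dependent hydroxylases known as HIF targets were induced: EGLN3 went from 7.196 and 5.13 to 36.1 and 33.1 RPKM, a log2 fold change of 2.49 ± 0.17 (adjusted p = 2.28e-05). EGLN1 went from 17.4 and 14.4 to 61.8 and 62.7 RPKM, a log2 fold change of 1.97 ± 0.13 (adjusted p = 2.19e-05). CITED2, which competes with HIFs for the coactivators CBP and p300, went from 90.6 and 106 to 326 and 309 RPKM, a log2 fold change of 1.70 ± 0.11 (adjusted p = 2.04e-05). The remaining members did not pass the test: log2 fold changes were 0.32 (adjusted p = 0.0659) for the partner ARNT, 0.46 (adjusted p = 0.285) for ARNT2, -0.32 (adjusted p = 0.0936) for the hydroxylase EGLN2, -0.073 (adjusted p = 0.753) for the asparaginyl hydroxylase HIF1AN and 0.15 (adjusted p = 0.27) for VHL. In all, 4 of the 10 tested members rose and 0 fell, and these 4 rose in each of the 4 leave-one-out fits.

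Genes of glucose uptake, glycolysis and lactate handling rose almost without exception. Of 23 members tested, 22 rose and 0 fell, against 19.1% of all genes rising and 15.1% falling. Of the 22 genes, 19 were induced and 21 rose in all 4 leave-one-out fits. The median log2 fold change of the list was 1.60. LDHA, which turns pyruvate into lactate, measured 1048 and 1005 RPKM in normoxia and 4379 and 4382 RPKM in hypoxia, a log2 fold change of 2.09 ± 0.13 (adjusted p = 2.1e-05). PGK1, a glycolytic kinase, went from 386 and 421 to 1969 and 1795 RPKM, a log2 fold change of 2.22 ± 0.21 (adjusted p = 0.000155). The 2 libraries of a group lay close together for LDHA, and no normoxia value came near a hypoxia value in either gene. PFKFB4 and PFKFB3 make fructose 2,6-bisphosphate, the activator of phosphofructokinase, and had large changes, as did the enolase ENO2. PFKFB4 went from 8.45 and 7.98 to 82.0 and 71.1 RPKM, a log2 fold change of 3.20 ± 0.21 (adjusted p = 2.27e-05). PFKFB3 went from 6.83 and 7.45 to 57.3 and 55.1 RPKM, a log2 fold change of 2.96 ± 0.18 (adjusted p = 1.84e-05). ENO2 went from 5.16 and 11.9 to 68.3 and 57.8 RPKM, a log2 fold change of 2.99 ± 0.31 (adjusted p = 0.00022). Its normoxia libraries lay far apart, yet both were well below the hypoxia libraries. PFKP, the platelet form of phosphofructokinase, went from 31.3 and 42.7 to 198 and 194 RPKM, a log2 fold change of 2.42 ± 0.20 (adjusted p = 6.33e-05). Its muscle counterpart PFKM was the 1 member that did not pass, at 94.2 and 105 RPKM in normoxia and 85.6 and 83.3 RPKM in hypoxia (log2 fold change -0.24, adjusted p = 0.11). The phosphofructokinase PFKL lay between them, from 36.3 and 35.7 to 64.2 and 70.7 RPKM, a log2 fold change of 0.90 ± 0.10 (adjusted p = 0.000335).

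The entry and the exit of the pathway moved too. SLC2A1, the glucose transporter GLUT1, went from 9.24 and 14.1 to 55.7 and 56.0 RPKM, a log2 fold change of 2.28 ± 0.20 (adjusted p = 0.000104). PDK1, the kinase that shuts pyruvate dehydrogenase and so keeps pyruvate out of mitochondria, went from 13.5 and 10.1 to 59.9 and 59.1 RPKM, a log2 fold change of 2.34 ± 0.14 (adjusted p = 1.69e-05). HK2 went from 15.0 and 13.1 to 47.7 and 47.5 RPKM and its relative HK1 from 110.0 and 90.4 to 246 and 313 RPKM, with log2 fold changes of 1.76 (adjusted p = 2.01e-05) and 1.48 (adjusted p = 0.000519). The lactate exporter SLC16A3 was rare, at 2.60 and 2.54 RPKM in normoxia and 6.70 and 5.62 RPKM in hypoxia, a log2 fold change of 1.22 ± 0.16 (adjusted p = 0.000871). GAPDH, often used as a reference gene, rose from 1281 and 1703 to 2635 and 2580 RPKM, a log2 fold change of 0.82 ± 0.16 (adjusted p = 0.00439), and ALDOA, PKM and ENO1 had log2 fold changes of 1.57, 1.60 and 1.61.

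**Figure D3:**
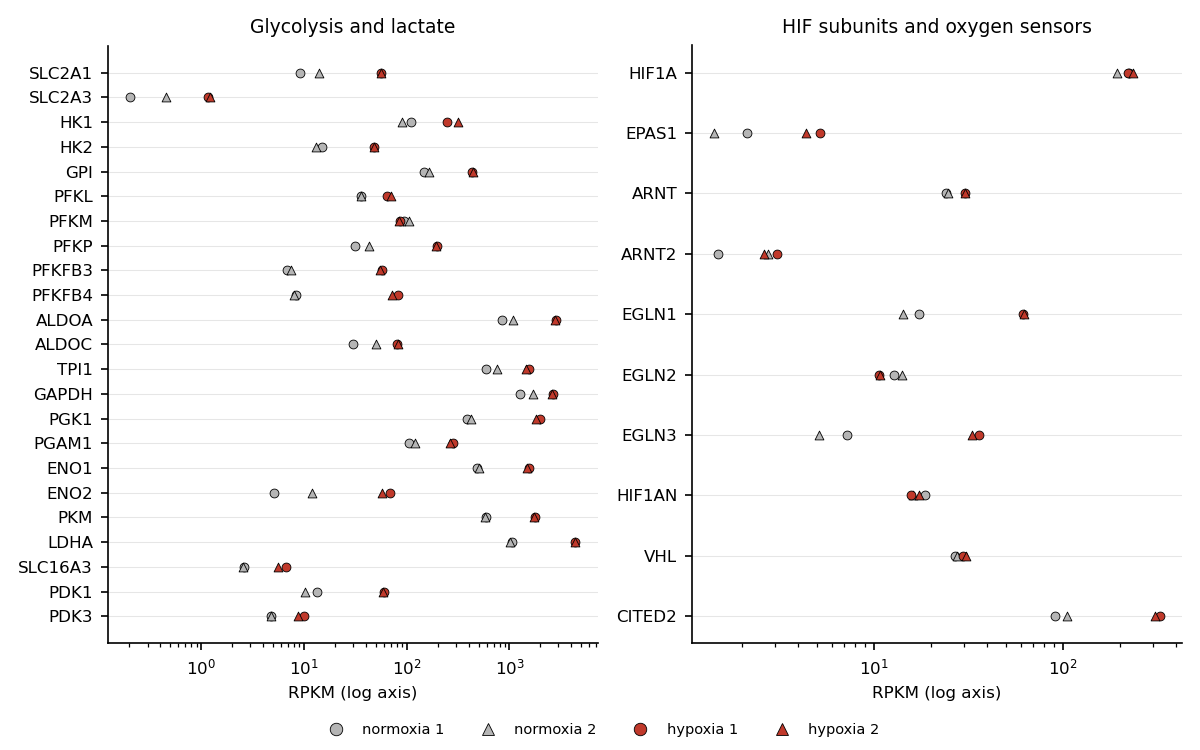
RPKM on a log axis of the members of the glycolysis list and of the HIF subunits and oxygen sensors, with 1 symbol per empty vector library. Hypoxia symbols lie right of the normoxia symbols for LDHA (4379 and 4382 against 1048 and 1005 RPKM) and overlap them for HIF1A.

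Glycogen genes changed in part, 4 of 10 members rising and 0 falling, against 19.1% of all genes rising and 15.1% falling. Their median log2 fold change was 0.39. GBE1, the branching enzyme, went from 12.2 and 10.9 to 33.5 and 33.4 RPKM, a log2 fold change of 1.53 ± 0.12 (adjusted p = 4.55e-05). PGM1, which links glucose 6-phosphate to glycogen, went from 9.93 and 15.5 to 27.2 and 26.7 RPKM, a log2 fold change of 1.11 ± 0.18 (adjusted p = 0.00217). The synthase GYS1 rose from 27.8 and 22.2 to 44.1 and 51.5 RPKM, a log2 fold change of 0.94 ± 0.13 (adjusted p = 0.00118). The phosphorylase PYGL did not pass the test (log2 fold change 0.37, adjusted p = 0.116). Among 9 genes of pH control 4 rose and 0 fell, but 1 of them, CA9, rose in all 4 leave-one-out fits. CA9, the carbonic anhydrase widely used as a tissue marker of hypoxia, was a rare transcript in these cells, at 0.473 and 0.531 RPKM in normoxia and 5.38 and 3.56 RPKM in hypoxia, a log2 fold change of 2.90 ± 0.43 (adjusted p = 0.00138). CA13 rose from 3.75 and 3.07 to 5.30 and 7.60 RPKM, a log2 fold change of 0.88 ± 0.20 (adjusted p = 0.00969). Its adjusted p was 0.0888 without hypoxia replicate 2. CA12 rose from 14.2 and 12.5 to 18.5 and 17.9 RPKM, a log2 fold change of 0.45 ± 0.11 (adjusted p = 0.016). It passed only where normoxia replicate 1 was the library left out: its adjusted p was 0.0606 without normoxia replicate 2, 0.112 without hypoxia replicate 1 and 0.0789 without hypoxia replicate 2.

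Mitochondria showed changes on several levels. The mitophagy receptors BNIP3 and BNIP3L, which lead to removal of the organelle, were among the more abundant induced genes. BNIP3 measured 186 and 174 RPKM in normoxia and 759 and 703 RPKM in hypoxia, a log2 fold change of 2.02 ± 0.14 (adjusted p = 2.83e-05). BNIP3L was at 94.7 and 81.3 RPKM in normoxia and 402 and 376 RPKM in hypoxia, a log2 fold change of 2.15 ± 0.15 (adjusted p = 2.83e-05). NDUFA4L2, a HIF target that restrains complex I, went from 14.7 and 30.01 to 291 and 287 RPKM, a log2 fold change of 3.77 ± 0.32 (adjusted p = 7.07e-05). FAM162A, a mitochondrial protein known as a HIF target, went from 315 and 342 to 1191 and 1121 RPKM, a log2 fold change of 1.81 ± 0.093 (adjusted p = 1.07e-05). MXI1, an antagonist of MYC, went from 51.9 and 46.2 to 145 and 122 RPKM, a log2 fold change of 1.44 ± 0.14 (adjusted p = 0.000141). Of 9 members of this list 6 rose and 0 fell, against 19.1% of all genes rising and 15.1% falling. Of the 6 genes, 5 rose in all 4 leave-one-out fits, and the median log2 fold change of the list was 1.44. COX4I1 and HIGD1A did not pass the test, at log2 fold changes of -0.062 (adjusted p = 0.706) and 0.082 (adjusted p = 0.619).

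Nuclear genes of the respiratory chain went the other way by small amounts. Of 41 subunits 12 fell and 0 rose, against 15.1% of all genes falling, and 39 of the 41 had a log2 fold change of 0 or below, with a median of -0.22. ATP5G1, a subunit of the ATP synthase ring, was the 1 lowered member, from 165 and 225 to 77.1 and 77.3 RPKM, a log2 fold change of -1.32 ± 0.14 (adjusted p = 0.000251). NDUFB3 fell from 153 and 151 to 102 and 105 RPKM, a log2 fold change of -0.55 ± 0.092 (adjusted p = 0.0023). NDUFB6 went from 32.4 and 37.3 to 22.8 and 22.6 RPKM, a log2 fold change of -0.61 ± 0.11 (adjusted p = 0.00341). These 3 fell in all 4 leave-one-out fits and the other 9 did not. Of the 21 genes of the citric acid cycle and pyruvate entry 3 fell (OGDH and SUCLG1 among them) and 1 rose (IDH3B), with a median of -0.13. The share that fell is near the 15.1% of all genes, the share that rose is below the 19.1% of all genes, and 0 of these 4 calls held in all 4 leave-one-out fits. Without hypoxia replicate 1 the adjusted p was 0.0652 for OGDH, 0.108 for SUCLG1 and 0.105 for IDH3B.

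Genes of mitochondrial protein synthesis and import went down further. Of 25 members 12 fell and 1 rose, against 15.1% of all genes falling and 19.1% rising. In all 4 leave-one-out fits 6 of the falls and the rise of GFM1 held, and the median log2 fold change was -0.49. HSPD1 and HSPE1 encode the mitochondrial chaperonin. HSPD1 went from 992 and 811 to 431 and 467 RPKM, a log2 fold change of -0.999 ± 0.12 (adjusted p = 0.000436). HSPE1 went from 1196 and 1111 to 669.5 and 712 RPKM, a log2 fold change of -0.74 ± 0.10 (adjusted p = 0.000723). MRPL15, a protein of the large mitochondrial ribosomal subunit, fell from 46.0 and 53.4 to 28.8 and 30.1 RPKM, a log2 fold change of -0.75 ± 0.11 (adjusted p = 0.00122). PPARGC1A, the coactivator that drives mitochondrial biogenesis, was lowered from 1.65 and 1.17 to 0.334 and 0.306 RPKM, a log2 fold change of -1.83 ± 0.37 (adjusted p = 0.00556). It was a rare transcript, close to 1 RPKM in normoxia.

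Transcripts encoded by mitochondrial DNA were the most abundant ones that fell. Of the 13 protein genes of the mitochondrial genome 7 could be tested. All 7 fell and 4 were lowered, against 15.1% of all genes falling and 2.15% lowered. MT-ND2, a subunit of complex I, measured 9881 and 11118 RPKM in normoxia and 2906 and 2809.8 RPKM in hypoxia, a log2 fold change of -1.87 ± 0.11 (adjusted p = 1.69e-05). MT-ND1 went from 8577 and 10197 to 3069 and 3013 RPKM, a log2 fold change of -1.62 ± 0.11 (adjusted p = 2.83e-05). MT-CYB, the cytochrome b of complex III, went from 7784 and 8112 to 2649 and 2752 RPKM, a log2 fold change of -1.56 ± 0.11 (adjusted p = 2.37e-05). In MT-ND2, MT-ND1 and MT-CYB both hypoxia values were more than 2-fold below both normoxia values. MT-ND3, MT-CO2, MT-ND5 and MT-ND6 had log2 fold changes of -1.39, -0.99, -0.74 and -0.71. The other 6 (MT-ATP6, MT-ATP8, MT-CO1, MT-CO3, MT-ND4 and MT-ND4L) were listed at 0 in both normoxia libraries and between 7419 and 121520 RPKM in the hypoxia libraries, so they were set aside, and the 7 tested genes are those that the table lists above 0 throughout.

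Most of the tested members of a list of angiogenic and secreted factors rose. Of the 15 tested 9 rose and 1 fell, against 19.1% of all genes rising and 15.1% falling. Of the 9 genes that rose, 8 were induced and 7 rose in all 4 leave-one-out fits. The median log2 fold change of the list was 1.12. VEGFA, the main vascular growth factor, measured 122 and 124 RPKM in normoxia and 445 and 370.1 RPKM in hypoxia, a log2 fold change of 1.72 ± 0.11 (adjusted p = 2.19e-05). ANGPT2, which destabilises vessels, went from 1.10 and 1.497 to 7.47 and 8.32 RPKM, a log2 fold change of 2.53 ± 0.16 (adjusted p = 2.19e-05). EDN2, an endothelin, went from 1.33 and 1.27 to 3.91 and 3.58 RPKM, a log2 fold change of 1.45 ± 0.17 (adjusted p = 0.000456). IGFBP3, a carrier of insulin-like growth factors, went from 61.6 and 47.3 to 131 and 154 RPKM, a log2 fold change of 1.39 ± 0.18 (adjusted p = 0.000676). Per length VEGFA had the highest level of these 4 factors. Of the 22 listed factors 7 did not reach 1 RPKM in 2 libraries, among them ADM and ANGPTL4, which are common hypoxia targets in other cells: ADM was listed between 0.0982 and 0.664 RPKM and ANGPTL4 between 0.401 and 0.734 RPKM in the 4 libraries.

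The hydroxylases and oxidases that modify collagen need oxygen as a substrate. Of 10 members of this list 5 rose and 0 fell, against 19.1% of all genes rising and 15.1% falling. The same 5 rose in all 4 leave-one-out fits. Besides PLOD2, the lysyl hydroxylase PLOD1 went from 57.5 and 66.9 to 167 and 184 RPKM, a log2 fold change of 1.496 ± 0.11 (adjusted p = 2.83e-05). P4HA1, a catalytic subunit of collagen prolyl hydroxylase, went from 32.3 and 33.7 to 105 and 101 RPKM, a log2 fold change of 1.64 ± 0.13 (adjusted p = 4.73e-05). P4HA2 went from 21.4 and 21.6 to 71.7 and 69.9 RPKM, a log2 fold change of 1.71 ± 0.10 (adjusted p = 1.69e-05). LOX, the lysyl oxidase that crosslinks collagen, went from 0.511 and 0.646 to 3.25 and 2.86 RPKM, a log2 fold change of 2.22 ± 0.23 (adjusted p = 0.000208). P4HB, the partner subunit of P4HA1, was at 2872 and 2739 RPKM in normoxia and 3179 and 3239 RPKM in hypoxia, a log2 fold change of 0.19 (adjusted p = 0.207), and PLOD3 had a log2 fold change of -0.079 (adjusted p = 0.611), so that neither passed the test.

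Jumonji histone demethylases, which also use oxygen, rose broadly and mildly. Of 16 members tested 13 rose and 0 fell, against 19.1% of all genes rising, with a median log2 fold change of 0.64, and 8 rose in all 4 leave-one-out fits. KDM4B measured 16.3 and 14.1 RPKM in normoxia and 56.1 and 60.0 RPKM in hypoxia, a log2 fold change of 1.93 ± 0.14 (adjusted p = 3.67e-05). KDM3A was at 19.2 and 17.6 RPKM in normoxia and 62.4 and 54.9 RPKM in hypoxia, a log2 fold change of 1.67 ± 0.11 (adjusted p = 2.35e-05). These 2 were the induced members. KDM5B rose from 33.2 and 26.6 to 56.6 and 57.2 RPKM, KDM6B from 26.1 and 29.2 to 55.8 and 49.8 RPKM and KDM4C from 51.5 and 43.4 to 89.6 and 85.8 RPKM, with log2 fold changes of 0.93 (adjusted p = 0.00144), 0.93 (adjusted p = 0.000373) and 0.89 (adjusted p = 0.00478). The changes of KDM3B, PHF8 and JMJD1C did not pass the test, at log2 fold changes of 0.26, 0.25 and -0.17.

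Of 24 further known HIF targets tested 20 rose and 0 fell, against 19.1% of all genes rising and 15.1% falling. Of the 20 genes, 18 were induced and 19 rose in all 4 leave-one-out fits. The median log2 fold change of the list was 1.37. NDRG1, a stress-responsive gene that is also androgen-induced, measured 131 and 136 RPKM in normoxia and 1089 and 997 RPKM in hypoxia, a log2 fold change of 2.97 ± 0.12 (adjusted p = 4.97e-06). PPFIA4, a liprin, went from 0.738 and 0.794 to 17.7 and 17.5 RPKM, a log2 fold change of 4.35 ± 0.23 (adjusted p = 1.19e-05). INSIG2, a brake on sterol synthesis, went from 8.71 and 8.10 to 65.0 and 56.7 RPKM, a log2 fold change of 2.84 ± 0.12 (adjusted p = 4.97e-06). FUT11, a fucosyltransferase, went from 8.33 and 8.69 to 53.9 and 51.9 RPKM, a log2 fold change of 2.62 ± 0.11 (adjusted p = 4.97e-06). In NDRG1, PPFIA4, INSIG2 and FUT11 the hypoxia values were all more than 4-fold above the normoxia values. BHLHE40, a transcriptional repressor tied to the clock, went from 6.17 and 6.89 to 37.4 and 32.5 RPKM, a log2 fold change of 2.3997 ± 0.14 (adjusted p = 1.69e-05). TMEM45A went from 2.25 and 2.24 to 11.6 and 9.59 RPKM, a log2 fold change of 2.18 ± 0.28 (adjusted p = 0.000687). DDIT4, a target that inhibits mTOR, did not pass, at 79.8 and 91.4 RPKM in normoxia and 108 and 96.7 RPKM in hypoxia (log2 fold change 0.26, adjusted p = 0.134).

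Lipid genes were called in both directions. Of 13 genes of lipid droplets and fatty acid uptake 4 rose and 1 fell, against 19.1% of all genes rising and 15.1% falling. HILPDA, a lipid droplet protein and HIF target, was induced from 22.4 and 21.6 to 53.4 and 47.6 RPKM, a log2 fold change of 1.19 ± 0.11 (adjusted p = 0.000133). CPT1A, which brings fatty acids into mitochondria, fell from 53.5 and 46.0 to 24.2 and 25.4 RPKM, a log2 fold change of -0.999 ± 0.11 (adjusted p = 0.000305), while its brain form CPT1C was induced from 0.696 and 0.87 to 2.23 and 2.03 RPKM, a log2 fold change of 1.34 ± 0.21 (adjusted p = 0.0017). The carnitine transferases moved apart, with CPT1A the far more abundant of them. Of 23 sterol synthesis genes 5 fell, not far from the share of all genes, and 1 rose. TM7SF2, a sterol reductase lowered from 42.8 and 65.8 to 19.3 and 16.8 RPKM, a log2 fold change of -1.55 ± 0.20 (adjusted p = 0.000723), and the sterol carrier STARD4, induced from 11.6 and 8.85 to 32.5 and 35.0 RPKM, a log2 fold change of 1.73 ± 0.23 (adjusted p = 0.000833), were the calls that held in all 4 leave-one-out fits.

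In fatty acid synthesis 5 of 12 members rose and 2 fell, against 19.1% of all genes rising and 15.1% falling. ELOVL5, an elongase of polyunsaturated fatty acids, was induced from 678 and 624 to 1369 and 1489 RPKM, a log2 fold change of 1.13 ± 0.15 (adjusted p = 0.000694), and the desaturase SCD rose from 176 and 175 to 306 and 293 RPKM, a log2 fold change of 0.77 ± 0.10 (adjusted p = 0.000723). ME1, the malic enzyme, fell from 28.1 and 27.1 to 15.3 and 15.4 RPKM, a log2 fold change of -0.84 ± 0.12 (adjusted p = 0.00101). These 3 held in all 4 leave-one-out fits. FASN rose from 94.0 and 134 to 169 and 158 RPKM, a log2 fold change of 0.54 ± 0.17 (adjusted p = 0.0405). Its adjusted p was 0.192 without normoxia replicate 1, 0.165 without hypoxia replicate 1 and 0.106 without hypoxia replicate 2. ACLY, which supplies acetyl-CoA for this route, was listed at 107 and 103 RPKM in normoxia and at 0 and 158 RPKM in hypoxia and was set aside.

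Most of the tested androgen response genes, which mark the luminal prostate program of these cells, rose. Over all genes 19.1% rose and 15.1% fell. Of the 28 members of the list tested 17 rose and 4 fell, 16 and 3 of them in all 4 leave-one-out fits, and the median log2 fold change was 0.63. KLK3, which encodes prostate-specific antigen, went from 1995 and 2045 to 3997 and 3718 RPKM, a log2 fold change of 0.93 ± 0.10 (adjusted p = 0.000256). KLK2 went from 615 and 579 to 1359 and 1302 RPKM, a log2 fold change of 1.16 ± 0.11 (adjusted p = 0.000148). In both kallikreins every hypoxia value lay well above both normoxia values. TRPM8, a cold-sensing ion channel, went from 7.21 and 5.37 to 45.0 and 43.7 RPKM, a log2 fold change of 2.81 ± 0.26 (adjusted p = 0.000111). ADAMTS1, a secreted protease, went from 149 and 131 to 520.2 and 530.1 RPKM, a log2 fold change of 1.91 ± 0.10 (adjusted p = 1.07e-05). The oxygen levels did not overlap for TRPM8 or ADAMTS1. FKBP5 went from 66.2 and 58.2 to 119 and 131 RPKM, a log2 fold change of 1.005 (adjusted p = 0.000392). ELL2 went from 50.8 and 39.7 to 103 and 114 RPKM, a log2 fold change of 1.26 (adjusted p = 0.00173). SGK1 went from 1.78 and 1.42 to 4.02 and 3.80 RPKM, a log2 fold change of 1.25 (adjusted p = 0.00582). TMPRSS2, a serine protease, did not pass the test (log2 fold change 0.06, adjusted p = 0.783).

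The members that fell were ACPP, UGT2B15, UGT2B17 and CAMKK2, of which CAMKK2 did not hold in all 4 leave-one-out fits. ACPP, the prostatic acid phosphatase, was lowered from 11.4 and 11.1 to 2.89 and 3.34 RPKM, a log2 fold change of -1.82 ± 0.14 (adjusted p = 4.25e-05). UGT2B17 and UGT2B15 encode glucuronosyltransferases that inactivate androgens, and androgens are known to repress them. UGT2B17 went from 46.1 and 48.8 to 21.9 and 22.4 RPKM, a log2 fold change of -1.09 ± 0.12 (adjusted p = 0.00024). UGT2B15 went from 85.5 and 67.7 to 38.0 and 40.9 RPKM, a log2 fold change of -0.95 ± 0.14 (adjusted p = 0.00123). NDRG1 stands in this list and among the HIF targets. SGK1 and FKBP5 are also known targets of the glucocorticoid receptor.

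Neuroendocrine markers were mostly below the limit, with 9 of 25 tested. Of these 9 genes 3 rose and 1 fell, against 19.1% of all genes rising and 15.1% falling. SYT4, a synaptic vesicle protein, went from 19.0 and 15.6 to 54.1 and 49.6 RPKM, a log2 fold change of 1.59 ± 0.16 (adjusted p = 0.000202). PEG10, a gene derived from a retrotransposon, went from 11.5 and 10.5 to 22.8 and 24.8 RPKM, a log2 fold change of 1.11 ± 0.14 (adjusted p = 0.000607). ENO2, the neuron-specific enolase described above, stands in the glycolysis list as well. The defining markers CHGA and INSM1 were listed at or near 0: CHGA did not exceed 0.0651 RPKM and INSM1 was listed at 0 in all 4 libraries. An exact 0 in these values can also be a failed estimate. ONECUT2 itself measured 2.89 and 7.86 RPKM in normoxia and 11.5 and 3.09 RPKM in hypoxia, and these values overlapped (log2 fold change 0.32, adjusted p = 0.733). DLL3 fell from 1.18 and 1.93 to 0.824 and 0.804 RPKM, a log2 fold change of -0.82 ± 0.27 (adjusted p = 0.0458). It passed only where normoxia replicate 1 was the library left out: its adjusted p was 0.258 without normoxia replicate 2, 0.149 without hypoxia replicate 1 and 0.16 without hypoxia replicate 2.

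Most targets of the integrated stress response fell. This pathway raises ATF4 when amino acids or protein folding fail, and ATF4 switches on amino acid synthesis and transport. Of 22 members 14 fell and 3 rose, against 15.1% of all genes falling, 6 of the falls held in all 4 leave-one-out fits, and the median log2 fold change was -0.46. ATF4 measured 278 and 392.1 RPKM in normoxia and 197 and 198 RPKM in hypoxia, a log2 fold change of -0.74 ± 0.16 (adjusted p = 0.00702). ASNS, asparagine synthetase, was at 115 and 175 RPKM in normoxia and 63.5 and 55.6 RPKM in hypoxia, a log2 fold change of -1.25 ± 0.19 (adjusted p = 0.00147). PSAT1 and PHGDH make serine. PSAT1 fell from 118 and 129 to 64.5 and 61.1 RPKM, a log2 fold change of -0.98 ± 0.10 (adjusted p = 0.000179). PHGDH went from 104 and 149.6 to 70.5 and 69.2 RPKM, a log2 fold change of -0.84 ± 0.17 (adjusted p = 0.00638). SLC7A11, the cystine transporter, was lowered from 13.8 and 12.2 to 6.15 and 5.14 RPKM, a log2 fold change of -1.19 ± 0.19 (adjusted p = 0.00196). CHAC1, which degrades glutathione, went from 7.86 and 16.2 to 4.26 and 3.63 RPKM, a log2 fold change of -1.497 ± 0.28 (adjusted p = 0.00415). In ATF4, ASNS and CHAC1 normoxia replicate 2 was well above replicate 1, and both were above the hypoxia libraries. VLDLR, a lipoprotein receptor, rose, from 3.10 and 3.91 to 13.7 and 15.2 RPKM, a log2 fold change of 2.02 ± 0.15 (adjusted p = 3.78e-05), and stands among the HIF targets too.

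Chaperones of the endoplasmic reticulum and targets of the unfolded protein response fell by smaller amounts, with a median of -0.31. Of 20 members 10 fell and 0 rose, against 15.1% of all genes falling and 19.1% rising. XBP1, a transcription factor of that response, fell from 82.1 and 89.3 to 44.02 and 43.8 RPKM, a log2 fold change of -0.96 ± 0.12 (adjusted p = 0.000475). SDF2L1 went from 9.44 and 12.1 to 4.16 and 3.99 RPKM, a log2 fold change of -1.37 ± 0.15 (adjusted p = 0.00028). CRELD2 went from 17.0 and 21.9 to 11.8 and 12.2 RPKM, a log2 fold change of -0.68 ± 0.14 (adjusted p = 0.00579). These 3 fell in all 4 leave-one-out fits and the other 7 did not. HSPA5, the central chaperone BiP, was at 289 and 246 RPKM in normoxia and 241 and 278 RPKM in hypoxia and did not pass (log2 fold change -0.044, adjusted p = 0.795).

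All 4 metallothioneins tested, small metal-binding proteins, fell, against 15.1% of all genes. MT1G measured 14.2 and 12.9 RPKM in normoxia and 2.43 and 1.94 RPKM in hypoxia, a log2 fold change of -2.58 ± 0.16 (adjusted p = 1.77e-05). MT2A was at 277 and 237 RPKM in normoxia and 128 and 127 RPKM in hypoxia, a log2 fold change of -1.01 ± 0.16 (adjusted p = 0.0021). These 2 fell in all 4 leave-one-out fits, whereas MT1X (log2 fold change -0.79, adjusted p = 0.0145) passed only where normoxia replicate 2 was the library left out, with adjusted p of 0.0675, 0.0607 and 0.0689 without normoxia replicate 1, hypoxia replicate 1 and hypoxia replicate 2. MT1F (log2 fold change -0.67, adjusted p = 0.0484) passed in none of the 4 fits, where its adjusted p ranged from 0.101 to 0.21. Reads of the metallothioneins may be shared among these close paralogs.

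Most interferon-stimulated genes fell. These genes answer interferons, antiviral cytokines that the labels do not name as a treatment here. Of 21 members 13 fell and 2 rose, against 15.1% of all genes falling and 19.1% rising. In all 4 leave-one-out fits 8 of the falls and the 2 rises held, and the median log2 fold change was -0.58. OAS2, an antiviral oligoadenylate synthetase, measured 12.4 and 12.3 RPKM in normoxia and 1.74 and 2.14 RPKM in hypoxia, a log2 fold change of -2.61 ± 0.20 (adjusted p = 4.87e-05). PSMB9, a subunit of the immunoproteasome, went from 6.12 and 6.66 to 2.17 and 2.00 RPKM, a log2 fold change of -1.57 ± 0.19 (adjusted p = 0.00044). IFI44L, an interferon-induced gene of the antiviral response, went from 6.15 and 5.23 to 2.58 and 2.30 RPKM, a log2 fold change of -1.19 ± 0.23 (adjusted p = 0.00498). These genes were of moderate or low level in normoxia and lower in both hypoxia libraries. IFIT3 went from 16.6 and 16.7 to 8.39 and 9.25 RPKM, a log2 fold change of -0.91 ± 0.11 (adjusted p = 0.000559). IFI27 went from 17.7 and 24.3 to 9.88 and 10.6 RPKM, a log2 fold change of -1.01 ± 0.18 (adjusted p = 0.00373). In each of these 5 genes both hypoxia values were below both normoxia values. HLA-C, a class I antigen gene, was 1 of the 2 members that rose, from 106 and 131 to 189 and 189.5 RPKM, a log2 fold change of 0.69 ± 0.12 (adjusted p = 0.0032), and its reads may be shared with other HLA genes. MX1 did not pass (log2 fold change -0.24, adjusted p = 0.292).

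Of 19 targets of NRF2, the transcription factor of the oxidant response, 5 rose and 6 fell, against 19.1% of all genes rising and 15.1% falling. NQO1, a quinone reductase, was lowered from 78.0 and 80.1 to 36.1 and 37.6 RPKM, a log2 fold change of -1.10 ± 0.11 (adjusted p = 0.000179), while the aldo-keto reductase AKR1C3 was induced from 0.288 and 0.66 to 4.88 and 4.55 RPKM, a log2 fold change of 3.15 ± 0.43 (adjusted p = 0.00094). Of 19 p53 targets 4 rose and 3 fell, shares close to those of all genes, and those that rose in all 4 leave-one-out fits were ZMAT3, from 4.99 and 3.95 to 10.8 and 10.5 RPKM, a log2 fold change of 1.24 ± 0.15 (adjusted p = 0.000495), and TP53INP1, from 34.6 and 30.3 to 51.4 and 49.5 RPKM, a log2 fold change of 0.64 ± 0.10 (adjusted p = 0.00198). CDKN1A, the best known of these targets, measured 72.9 and 95.7 RPKM in normoxia and 108 and 100.5 RPKM in hypoxia, a log2 fold change of 0.32 (adjusted p = 0.107). In GDF15, the normoxia libraries differed from each other by more than 4-fold, at 199 and 858 RPKM in normoxia and 498 and 383 RPKM in hypoxia, and it did not pass (log2 fold change 0.08, adjusted p = 0.92).

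Proliferation genes changed by small amounts in the median. Of 33 genes of DNA replication 3 fell and 0 rose, of 32 mitotic genes 3 rose and 3 fell, and of 16 genes of homologous recombination and the Fanconi pathway 5 fell and 0 rose, against 15.1% of all genes falling and 19.1% rising. In all 4 leave-one-out fits 0 of these 14 calls held. The medians were -0.19, -0.02 and -0.17 on the log2 scale. MKI67, the usual marker of cycling cells, was at 20.1 and 17.5 RPKM in normoxia and 21.5 and 21.4 RPKM in hypoxia, a log2 fold change of 0.19 (adjusted p = 0.203), and PCNA at 181 and 155 RPKM in normoxia and 139 and 148 RPKM in hypoxia, a log2 fold change of -0.23 (adjusted p = 0.124).

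Regulators of the G1 phase moved further, while over all genes 19.1% rose and 15.1% fell. Of 16 G1 cyclins, kinases and inhibitors 6 rose and 1 fell, and 4 rises held in all 4 leave-one-out fits. CDKN1C, the inhibitor p57, was induced from 0.75 and 0.731 to 2.47 and 2.68 RPKM, a log2 fold change of 1.67 ± 0.15 (adjusted p = 9.03e-05). CCNG2, an atypical cyclin tied to arrest, went from 35.0 and 26.8 to 66.9 and 63.5 RPKM, a log2 fold change of 1.09 ± 0.15 (adjusted p = 0.000932). CDKN2D, the inhibitor p19, went from 4.56 and 5.48 to 10.99 and 10.1 RPKM, a log2 fold change of 1.06 ± 0.15 (adjusted p = 0.00116). CCND1, cyclin D1, rose from 66.7 and 68.05 to 131 and 122 RPKM, a log2 fold change of 0.91 ± 0.091 (adjusted p = 0.000179). Genes with opposite roles in G1 thus rose side by side. In ribosome biogenesis 8 of 26 members fell and 0 rose, against 15.1% of all genes falling and 19.1% rising, with a median of -0.20. Among those that fell was NPM1, from 3044 and 3475 to 2372 and 2175 RPKM, a log2 fold change of -0.52 ± 0.11 (adjusted p = 0.008). However, 0 of the 8 held in all 4 leave-one-out fits, and the adjusted p of NPM1 was 0.0792 without hypoxia replicate 2. MYC, which drives this program, was at 83.4 and 94.4 RPKM in normoxia and 86.8 and 88.3 RPKM in hypoxia, a log2 fold change of -0.02 (adjusted p = 0.916).

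**Figure D4:**
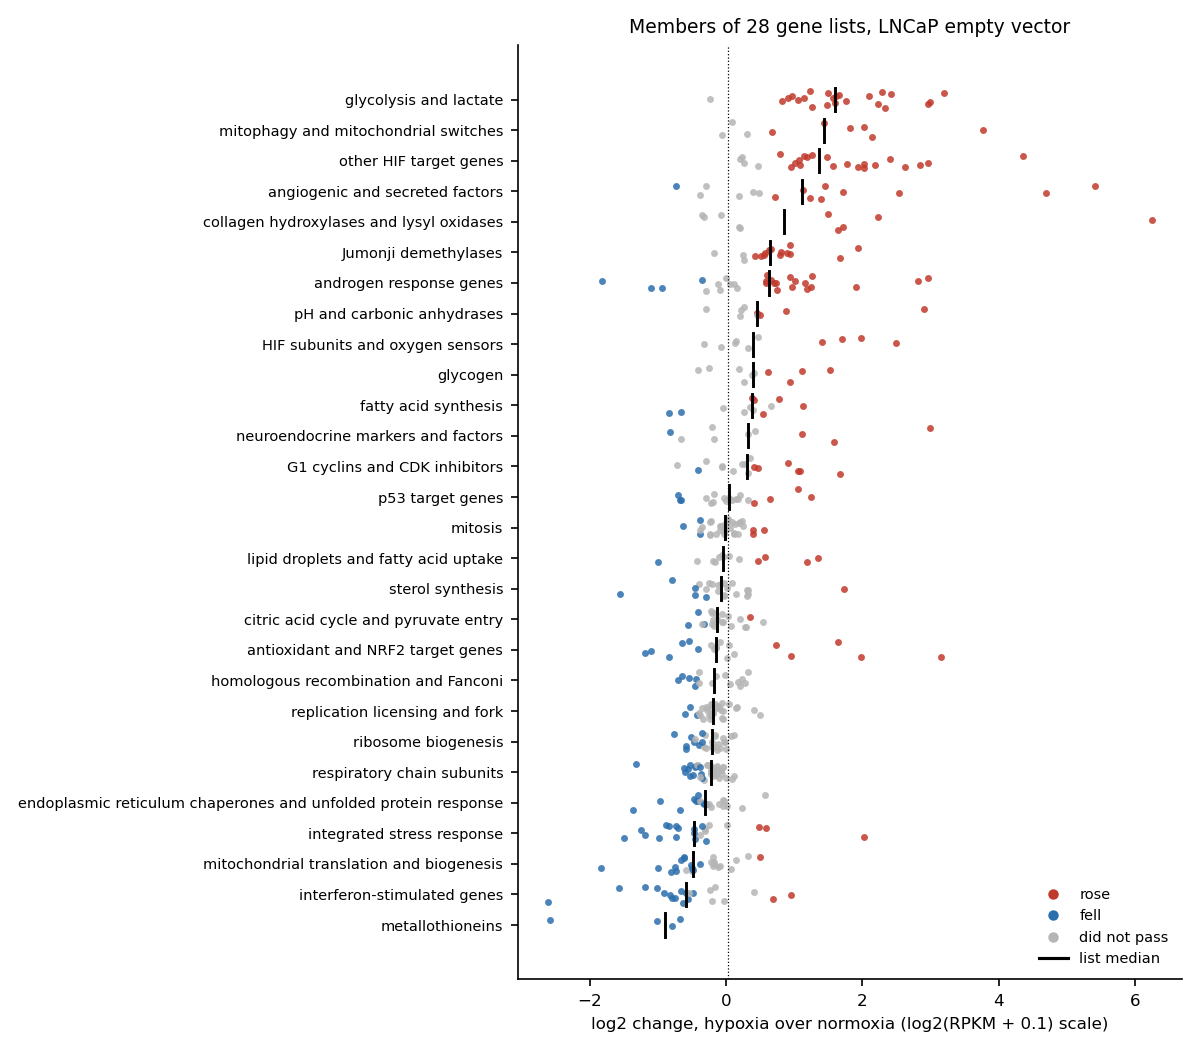
Log2 fold change of hypoxia over normoxia in empty vector cells (x axis) for the tested members of each gene list (y axis), with 1 point per gene coloured by its call, a bar at the list median and a dotted line at the median of all genes (0.02). The glycolysis list has a median of 1.60 and the metallothioneins one of -0.90, while the mitotic genes centre near 0.

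By level, the induced genes with the highest mean RPKM were LDHA, ALDOA, CKB, PKM, PGK1 and AMD1. CKB, the brain creatine kinase, went from 838 and 1059.7 to 2674 and 2363 RPKM, a log2 fold change of 1.42 ± 0.14 (adjusted p = 0.000203). AMD1, which makes the aminopropyl donor of polyamine synthesis, went from 554 and 478 to 1626 and 1671 RPKM, a log2 fold change of 1.68 ± 0.16 (adjusted p = 0.000163). The other 4 are glycolytic, so that CKB and AMD1 were the 2 outside that pathway. The lowered genes with the highest mean were MT-ND3, MT-ND2, MT-ND1, MT-CYB, MGST1 and VIMP. MGST1, a microsomal glutathione transferase, went from 1646 and 1602 to 777 and 789 RPKM, a log2 fold change of -1.05 ± 0.13 (adjusted p = 0.000598). VIMP, a selenoprotein of the endoplasmic reticulum, went from 1209.9 and 2131 to 993 and 435 RPKM, a log2 fold change of -1.29 ± 0.37 (adjusted p = 0.0247). However, the libraries of each group lay far apart, and its adjusted p was 0.14 without normoxia replicate 2 and 0.142 without hypoxia replicate 2.

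The same contrast in Flag-OC2 cells was set beside that of the empty vector cells in 1 fit over the 8 LNCaP libraries. In Flag-OC2 cells 550 genes (4.68%) were induced and 131 (1.11%) lowered, of 11760 tested. Of the 623 genes induced in empty vector cells 339 (54.4%) were also induced in Flag-OC2 cells, which is 61.6% of the genes induced there, and 603 were higher in hypoxia, against 58.4% of all genes. Of the 253 lowered genes 67 (26.5%) were also lowered, which is 51.2% of those lowered there, and 216 were lower. Over the induced genes the median log2 fold change was 1.41 in empty vector and 1.06 in Flag-OC2 cells, and over the lowered genes -1.26 and -0.62. The genes were chosen by the empty vector values, so a median nearer to 0 in the other cells is not a result about those cells. The opposite call was made for 2 of the induced and 3 of the lowered genes.

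LDHA, at 798 and 1061 RPKM in normoxia and 4117 and 4122 RPKM in hypoxia in Flag-OC2 cells, had log2 fold changes of 2.09 and 2.16, and PLOD2, at 1.69 and 9.87 RPKM in normoxia and 297 and 335 RPKM in hypoxia, of 6.24 and 6.22. The difference between the log2 fold changes was 0.069 ± 0.19 (adjusted p = 0.889) for LDHA and -0.021 ± 0.91 (adjusted p = 0.994) for PLOD2, so that neither passed the test. Of the gene lists, glycolysis had medians of 1.60 and 1.88, the integrated stress response of -0.46 and 0.08, and the metallothioneins of -0.90 and 0.17, and the difference between the medians was not tested. The difference between the cells was tested gene by gene, and 29 genes (0.247%) passed an adjusted p of 0.05, with 12 larger and 17 smaller in Flag-OC2 cells, while 1979 had an unadjusted p under 0.05. ONECUT2 lists no value in the Flag-OC2 columns, so the labels could not be checked by it. The count of 29 depended on single libraries, reaching 228 without empty vector normoxia replicate 1 and falling to 13 and 10 without empty vector hypoxia replicate 1 or 2, to 6 without Flag-OC2 normoxia replicate 1 and to 9 without Flag-OC2 hypoxia replicate 1.

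When each of the 8 libraries was left out in turn, 5 of the 29 passed every time. GSTA1, a glutathione transferase, fell in empty vector cells from 14.1 and 16.7 to 7.03 and 6.87 RPKM, a log2 fold change of -1.13 ± 0.19 (adjusted p = 0.00277), and was at 24.8 and 35.2 RPKM in normoxia and 100.1 and 73.0 RPKM in hypoxia in Flag-OC2 cells, a difference in log2 fold change of 2.66 ± 0.27 (adjusted p = 0.00963). S1PR3, a receptor of sphingosine 1-phosphate, was induced in empty vector cells from 1.08 and 0.998 to 6.21 and 6.14 RPKM, a log2 fold change of 2.46 ± 0.18 (adjusted p = 3.11e-05), and was at 5.03 and 6.22 RPKM in normoxia and 5.403 and 6.88 RPKM in hypoxia in Flag-OC2 cells, a difference of -2.34 ± 0.25 (adjusted p = 0.00963). The hypoxia levels of S1PR3 were alike in both cells and the normoxia levels apart, whereas those of GSTA1 were apart in both. The other 3 rest on values at or near 0: HSPA8 and TPP1 were listed at 0 in both Flag-OC2 hypoxia libraries, and TVP23C-CDRT4 was described above.

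**Figure D5:**
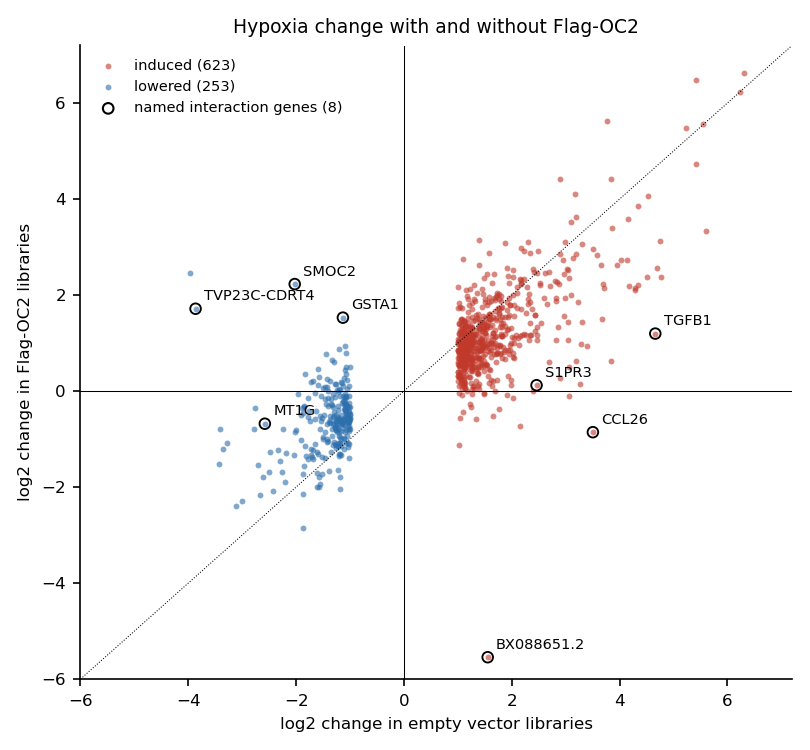
Log2 fold change of hypoxia over normoxia in Flag-OC2 cells (y axis) against that in empty vector cells (x axis) for the 623 induced and 253 lowered genes, with 1 point per gene and a dotted line where the changes are equal. Most points lie on the same side of 0 in both, as 603 of the induced genes were higher and 216 of the lowered genes lower in Flag-OC2 hypoxia.

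Far fewer genes passed the test in PC3 cells under the same oxygen levels. The PC3 table was fitted on its own, and no test was made across the tables. That fit also held the PC3 libraries with ONECUT2 siRNAs, where the libraries of a group carried different siRNAs. Their spread enters the PC3 test, so the counts of the lines do not compare the size of their responses. Of 11460 genes tested in the siCtrl libraries 34 (0.297%) were induced and 0 (0%) were lowered by limma at an adjusted p of 0.05, while 275 and 193 passed the fold limit at an unadjusted p under 0.05. The induced count was 2 to 10 when single PC3 libraries were left out, being 3 and 10 without siCtrl normoxia replicate 1 or 2 and 2 without either hypoxia replicate, and 67 with the replicate number as a block. Of the 623 genes induced in empty vector LNCaP cells 460 were tested in PC3 cells, where 341 were higher in hypoxia, 116 were more than 2-fold higher and 19 were induced. Over all 10300 genes tested in both lines 43.7% were higher and 2.56% more than 2-fold higher in PC3 hypoxia. Of the lowered genes 162 were tested, 125 were lower and 20 more than 2-fold lower, against 2.78% of all genes.

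The values of single members in PC3 cells are given without a test between the lines. PLOD2 measured 50.4 and 62.1 RPKM in normoxia and 286 and 204 RPKM in hypoxia in PC3 cells, a log2 fold change of 2.11 ± 0.28 (adjusted p = 0.025), and STC1 8.99 and 9.87 RPKM in normoxia and 81.6 and 67.2 RPKM in hypoxia, with 2.96 ± 0.33 (adjusted p = 0.0104). Both started from a higher level in PC3 than in LNCaP cells, as far as levels normalized in separate tables can be set side by side. CA9 measured 0.938 and 0.386 RPKM in normoxia and 50.01 and 45.1 RPKM in hypoxia, with 6.07 ± 0.55 (adjusted p = 0.00436), and PGK1 22.6 and 30.7 RPKM in normoxia and 112 and 87.8 RPKM in hypoxia, with 1.91 ± 0.27 (adjusted p = 0.0313). LDHA measured 865 and 917 RPKM in normoxia and 2662 and 2111 RPKM in hypoxia, with 1.41 ± 0.39 (adjusted p = 0.314), and did not pass the test in PC3 cells. CYP11A1 was not tested in PC3 cells.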

How the data were processed

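RNA-Seq of LNCaP cells with an empty or Flag-OC2 vector and of PC3 cells with control or ONECUT2 siRNA, in normoxia or hypoxia, was taken from the tables as the authors deposited them. Polyadenylated RNA libraries were stranded. The deposited RPKM values were made by the authors with Cufflinks 2.1.1 and GENCODE genes after alignment with STAR 2.4.2a to hg19 (GRCh37), the tools being named in the submitters' processing notes and the study's methods. The strand setting and sequencing depths are not given in the sources used here, so no counting interval could be given and relative depth was read from the smallest steps of low values. The 12 ChIP-Seq samples were not used.

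RPKM values were tested as log2(RPKM + 0.1) with limma 3.58.1 in R 4.3.3, with a mean-variance trend, in 1 fit of the 8 LNCaP libraries as 4 groups, for genes that reached 1 RPKM in 2 or more of the empty vector libraries and had no exact 0 beside a value over 10. P-values were adjusted by Benjamini-Hochberg over all 11761 genes. Fold changes on this scale understate the change of low genes. PC3 libraries, those with control and those with ONECUT2 siRNAs, had a fit of their own. The scripts were tested on simulated data with known changes. Alternatives were adding 1 in place of 0.1 before the log, dropping the RPKM limit or raising it to 5, scaling at the 0.75 quantile, a fit to the 4 libraries, unadjusted p-values, a replicate block and leaving out each library. The crossed block, exact 0 taken as missing, and leaving out libraries for the difference between the cells and for PC3 cells were added after seeing the data.

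Named genes were the 12 induced and 12 lowered genes of largest change, the 6 of each with the highest mean level, the 8 induced or lowered genes of smallest p for the difference between the cells, all HIF subunits and sensors, and in each other list up to 6 members of largest change among those called. Further list members in the text, those without a call among them, were chosen after their values were seen. The gene lists, and the choice of these 4 libraries, were made with earlier results of these data known. Some named genes are not reported here. No set test was run, and list counts are descriptions. Promoter windows came from RefSeq tables on GRCh38.p14, were matched to 9565 of 11761 genes (9024 by symbol, 541 by older symbol), and those printed were located in GRCh37 by exact match. Sequences and figures were handled with Python 3.11.15, NumPy 2.4.6, SciPy 1.17.1 and matplotlib 3.10.9.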

Additional observations from a re-analysis of the deposited data

Results flagged for a closer look

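The hypoxia response differed between Flag-OC2 and empty vector LNCaP cells, by the interaction term of the limma fit, for 29 of 11760 genes, and the 8 with the smallest p among the induced and lowered genes are given here. Each difference is the log2 fold change in Flag-OC2 cells minus that in empty vector cells. GSTA1 differed by 2.66 ± 0.27 (adjusted p = 0.00963) and S1PR3 by -2.34 ± 0.25 (adjusted p = 0.00963), and both passed in each of the 8 fits that left out 1 library.

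SMOC2, a secreted matrix protein, was lowered in empty vector cells, at 1.25 and 2.27 RPKM in normoxia and 0.319 and 0.361 RPKM in hypoxia, and was at 0.393 and 0.479 RPKM in normoxia and 2.97 and 1.94 RPKM in hypoxia in Flag-OC2 cells, a difference of 4.25 ± 0.47 (adjusted p = 0.0105). CCL26, a chemokine, was induced in empty vector cells, at 0.125 and 0.155 RPKM in normoxia and 2.20 and 3.12 RPKM in hypoxia, and was at 0.377 and 0.265 RPKM in normoxia and 0.188 and 0.0841 RPKM in hypoxia in Flag-OC2 cells, a difference of -4.36 ± 0.52 (adjusted p = 0.0157). SMOC2 and CCL26 each passed in 6 of the 8 leave-one-out fits. MT1G was at 7.70 and 8.50 RPKM in normoxia and 5.30 and 4.74 RPKM in hypoxia in Flag-OC2 cells, a difference of 1.90 ± 0.22 (adjusted p = 0.0144), and passed in 5 of the 8. TGFB1 was at 0.972 and 0.991 RPKM in normoxia and 2.16 and 2.62 RPKM in hypoxia in Flag-OC2 cells, a difference of -3.47 ± 0.44 (adjusted p = 0.0248), and passed in 4 of the 8. The normoxia level of TGFB1 was near 0 in empty vector and near 1 RPKM in Flag-OC2 cells.

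The other 2 rest on values at or near 0, and the size of their differences depends on the pseudocount. TVP23C-CDRT4 differed by 5.58 ± 0.52 (adjusted p = 0.00786), with practically 0 RPKM in both empty vector hypoxia libraries, and BX088651.2 by -7.10 ± 0.71 (adjusted p = 0.00954), listed at 0 in both Flag-OC2 hypoxia libraries. The cause of these differences was not tested.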

How the results depend on the processing

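The counts of genes that rose and fell in empty vector cells ranged from 1146 to 2162 and from 693 to 1772 when each library was left out in turn, lowest without hypoxia replicate 1, while those of induced (584 to 667) and lowered genes (222 to 358) moved less. A pseudocount of 1 gave 128 lowered genes in empty vector cells and 360 induced and 69 lowered in Flag-OC2 cells, and a limit of 5 RPKM gave 130, 334 and 78, with fewer low genes tested. With no limit on low values 202 genes were lowered in Flag-OC2 cells. The 29 genes whose response differed between the cells became 57 with a pseudocount of 1 and ranged from 6 to 228 over the leave-one-out fits, with 228 without empty vector normoxia replicate 1, and the cause was not tested. In PC3 cells the induced genes numbered 2 to 10 over the leave-one-out fits, which have fewer libraries. HIF1AN, at a log2 fold change of -0.07 without a call, ranged from -0.18 to 0.031 in the leave-one-out fits and was at 0.0019 without hypoxia replicate 1. The motif share of all tested genes was 58.3% when only the bases before the start were searched.

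Libraries of a number in normoxia and hypoxia did not deviate together: the correlation across genes was -0.182 in empty vector and -0.006 in Flag-OC2 cells. With the replicate block 2108 genes rose, 1628 fell, 620 were induced and 253 lowered in empty vector cells, 17 differed between the cells, and in PC3 cells 67 were induced and 2 lowered. A crossed pairing, added after seeing the data, gave 623 induced and 252 lowered genes and 42 that differed between the cells. Upper-quartile scaling moved the median of all genes from 0.02 to -0.0042 and gave 583 induced and 276 lowered genes. Over the 191 named genes, 2272 of 2453 alternative values kept direction and side of the threshold, 177 lost it, 2 gained it and 2 reversed, both of them HIF1AN.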

Other observations

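These gene groups were put together after their values in empty vector cells were seen, so they are descriptions of these 4 libraries. Genes known as direct targets of BMP and Notch signalling were among the induced. ID1, an inhibitor of differentiation factors, measured 18.4 and 12.8 RPKM in normoxia and 66.0 and 76.2 RPKM in hypoxia, a log2 fold change of 2.20 ± 0.17 (adjusted p = 5.2e-05), and ID2 36.1 and 35.4 RPKM in normoxia and 195 and 191 RPKM in hypoxia, a log2 fold change of 2.43 ± 0.11 (adjusted p = 4.97e-06). BAMBI, a decoy receptor of that pathway, went from 11.4 and 13.0 to 54.1 and 51.2 RPKM, a log2 fold change of 2.103 ± 0.13 (adjusted p = 1.77e-05), and HEY1, a repressor downstream of Notch, from 1.14 and 1.52 to 13.0 and 13.4 RPKM, a log2 fold change of 3.23 ± 0.25 (adjusted p = 5e-05). Log2 fold changes were 1.74 for ID3, 2.12 for HES1, 4.51 for ATOH8, 1.18 for SMAD6, 1.12 for SMAD7 and 3.20 for the BMP antagonist CHRD.

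Genes of the cell surface and the matrix formed another such group. FN1, fibronectin, measured 76.9 and 59.7 RPKM in normoxia and 513 and 487 RPKM in hypoxia, a log2 fold change of 2.88 ± 0.12 (adjusted p = 4.97e-06). EGFR, the epidermal growth factor receptor, went from 10.04 and 8.69 to 66.9 and 57.6 RPKM, a log2 fold change of 2.72 ± 0.18 (adjusted p = 2.28e-05). THBS1, TNC, SERPINE2, S100A4 and S100A10 had log2 fold changes of 2.83, 2.48, 3.04, 3.05 and 2.37. ITGA2, an integrin subunit, was lowered (log2 fold change -1.27, adjusted p = 0.00287). Of the genes known from a mesenchymal state, the transcription factors SNAI2 (log2 fold change 0.98, adjusted p = 0.00138) and TWIST1 (log2 fold change 0.79, adjusted p = 0.0049) rose, while VIM (log2 fold change 0.23, adjusted p = 0.188) and SNAI1 (log2 fold change 0.08, adjusted p = 0.771) did not pass the test. CDH2 and ZEB1 were not tested. The epithelial cadherin CDH1 measured 330 and 333 RPKM in normoxia and 352 and 362 RPKM in hypoxia. Its log2 fold change was 0.107 ± 2.70 (adjusted p = 0.979). The fit also takes in the spread of the Flag-OC2 libraries, and this SE is far wider than the spread of the empty vector libraries. The test therefore could not decide whether CDH1 changed.

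Enzymes of steroid metabolism moved in both directions. Besides CYP11A1 and AKR1C3, the log2 fold changes were 1.98 for AKR1C1, 1.64 for AKR1C2 and 2.05 for HSD17B11, while they were -1.07 for UGT2B28, -0.55 for UGT2B11 and -1.43 for HSD17B8. SRD5A3 and HSD17B10 fell, with log2 fold changes of -0.39 and -0.57. SRD5A1, HSD17B4, HSD17B6 and STS did not pass the test, at 0.098, 0.23, -0.42 and 0.039. CYP17A1, HSD3B1, HSD3B2 and HSD17B3 were not tested. Reads may be shared among the AKR1C and among the UGT2B paralogs.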
